A study of Homo sapiens with 12 samples.

Results

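Aminoacyl-tRNA synthetases are the enzymes that join each amino acid to its transfer RNA, the step that sets which residue the ribosome adds for a codon. Human cells hold a cytosolic set, which serves nuclear mRNAs, and a separate mitochondrial set, encoded in the nucleus and imported, which serves the mRNAs of the mitochondrial genome. Several cytosolic synthetases are textbook targets of the transcription factor ATF4, which is translated when amino acids are short or the endoplasmic reticulum is under stress, and WARS1 is a textbook interferon-induced gene of macrophages. The members described here are the 37 of 20307 genes in the expression table whose symbol follows the synthetase pattern: a letter for the amino acid, then ARS, then an optional A, B, 1 or 2, with EPRS1 added by name. The 20 whose symbol does not end in 2 are called cytosolic and the 17 whose symbol does are called mitochondrial. GARS1 and KARS1 supply both compartments and are counted as cytosolic, and FARSA and FARSB encode the 2 subunits of 1 cytosolic enzyme.

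RNA was sequenced from 12 samples in 4 groups of 3. The THP-1 groups are a wild-type monocytic leukaemia line that was given the phorbol ester PMA for 24 h, which drives it towards a macrophage state, and was then exposed for 48 h either to H1299 cells labelled DCBLD2 or to control H1299 cells. The series text describes this exposure as co-culture and the sample labels as supernatant. H1299, from a non-small-cell lung carcinoma, was sequenced as a group labelled for DCBLD2 overexpression and as a group labelled wild type, called labelled control here. Both lines are established cultures, the H1299 genotype is given without a construct or clone, and nothing in the labels makes the replicates separate cultures. The p-values then measure only how these samples spread, and that spread may be technical.

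DCBLD2 went against the H1299 labels. It was at 105, 98.2 and 92.5 TPM (a transcript's share of the library, corrected for its length) in the libraries labelled DCBLD2, against 247, 148 and 196 TPM in the libraries labelled control, so the labelled overexpression group was the lower one without overlap. Every direction below is therefore given as the library labelled DCBLD2 relative to the library labelled control. Libraries held 18606739 to 26787853 estimated reads in THP-1 and 14578887 to 23388187 in H1299, and the least counted synthetase had at least 44 reads in every library. All 37 synthetases passed the filter on low counts in every fit. Replicates of THP-1 lay close to sampling noise, with a common coefficient of variation of 1.96% between libraries of a group, against 13.3% in H1299. Of the 10 myeloid markers, all were above 0 in every THP-1 library, and the pan-leukocyte gene PTPRC was at 0 in every H1299 library. The myeloid marker CD68 averaged 198 TPM in H1299 labelled DCBLD2 libraries and 136 TPM in labelled control libraries. In THP-1 it averaged 289 and 318 TPM. The other myeloid markers averaged at most 3.58 TPM in each H1299 group, with TYROBP, CORO1A and ITGB2 above 0 in every H1299 library. The keratins KRT8 and KRT18 averaged 460.3 TPM or more in each H1299 group and at most 1.01 TPM in each THP-1 group, while KRT19, the other keratin of the carcinoma list, was near 0 in both lines. TEAD1, also on that list, did not separate the lines. It averaged 22.92 TPM in H1299 labelled DCBLD2 and 14.38 TPM in labelled control libraries, against 17.77 and 15.03 TPM in THP-1. CAV1, CAV2, YAP1 and WWTR1, WWTR1 being the lowest, averaged 10.62 TPM or more in each THP-1 group. These 4 and LAMB1 and EGFR were higher in both H1299 groups than in either THP-1 group. In bulk RNA, fewer cells of a kind and less RNA per cell cannot be told apart.

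Promoter sequence is shown for 7 cytosolic synthetases because their windows hold a motif of a factor whose target list is described below. RefSeq windows on GRCh38.p14, from 250 bases before to 50 bases after a transcript start, were matched to 30 of the 37 members. The motifs searched on both strands were TGATGNAA (ATF4 paired with a C/EBP factor), the interferon-stimulated response element (GAAA, any 2 bases, GAAA), TTCNNNGAA (STAT factors) and CACGTG (the E-box). TGATGNAA was found for 7 of 16 cytosolic members, AARS1, CARS1, GARS1, IARS1, MARS1, NARS1 and TARS1, and for 1 of 14 mitochondrial members, YARS2. It was found for 4.46% of the 27305 genes with a window. The interferon-stimulated response element was found for WARS1 and EARS2, against 4.38% of genes, TTCNNNGAA for 5 of 30 members, against 9.38%, and CACGTG for 4 of 30, against 8.77%. In the windows of TARS1, MARS1, CARS1 and IARS1 the bases read TTGCATCA, the reverse complement of TGATGCAA, and begin at positions 3, -4, -2 and -13 counted from the start. The sequences below run from 75 bases before to 25 bases into the transcript, 5′ to 3′ on the gene's strand, with the motif match in capitals, TGATGNAA or its reverse complement in the first 6 and the interferon-stimulated response element in WARS1. RefSeq gives 2 windows for TARS1, CARS1, GARS1 and WARS1, and the match is in 1 of them. A match is a run of letters and not a measured binding site.
TARS1, chr5:33440890-33440989, plus strand: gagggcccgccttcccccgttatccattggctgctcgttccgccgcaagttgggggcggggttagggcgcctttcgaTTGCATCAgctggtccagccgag
IARS1, chr9:92293673-92293772, minus strand: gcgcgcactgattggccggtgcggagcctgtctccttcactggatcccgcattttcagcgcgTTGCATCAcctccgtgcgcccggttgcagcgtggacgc
CARS1, chr11:3057399-3057498, minus strand: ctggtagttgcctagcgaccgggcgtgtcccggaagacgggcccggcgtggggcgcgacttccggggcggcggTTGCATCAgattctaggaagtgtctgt
MARS1, chr12:57487993-57488092, plus strand: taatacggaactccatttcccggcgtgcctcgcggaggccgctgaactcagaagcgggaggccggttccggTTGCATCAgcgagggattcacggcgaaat
GARS1, chr7:30594803-30594902, plus strand: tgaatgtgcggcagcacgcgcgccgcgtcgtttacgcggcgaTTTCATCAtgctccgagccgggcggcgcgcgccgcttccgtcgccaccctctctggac
NARS1, chr18:57621812-57621911, minus strand: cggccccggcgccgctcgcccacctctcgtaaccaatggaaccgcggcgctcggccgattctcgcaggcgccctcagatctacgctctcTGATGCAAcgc
WARS1, chr14:100375323-100375422, minus strand: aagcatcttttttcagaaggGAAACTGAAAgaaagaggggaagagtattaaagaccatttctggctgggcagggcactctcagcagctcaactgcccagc

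In THP-1, cytosolic synthetase mRNAs were mostly higher and mitochondrial ones mostly lower in the libraries labelled DCBLD2. Of 20 cytosolic members, 12 rose, 3 fell and 5 did not pass the test, with a median log2 fold change of 0.11. Of 17 mitochondrial members, 2 rose, 9 fell and 6 did not pass, with a median of -0.24. Calls were common in this comparison: 68.1% of the 13120 genes tested passed at an adjusted p under 0.05, 34.5% higher and 33.6% lower, with a median log2 fold change of 0.00, so the 26 of 37 members called are near the background and only their directions are described. The 60% of cytosolic members called higher and the 52.9% of mitochondrial members called lower can be read against those 2 shares. Most changes were small. The largest rises were those of TARS1, EPRS1 and LARS1, and the largest falls those of LARS2, MARS2 and VARS2.

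**Figure D1:**
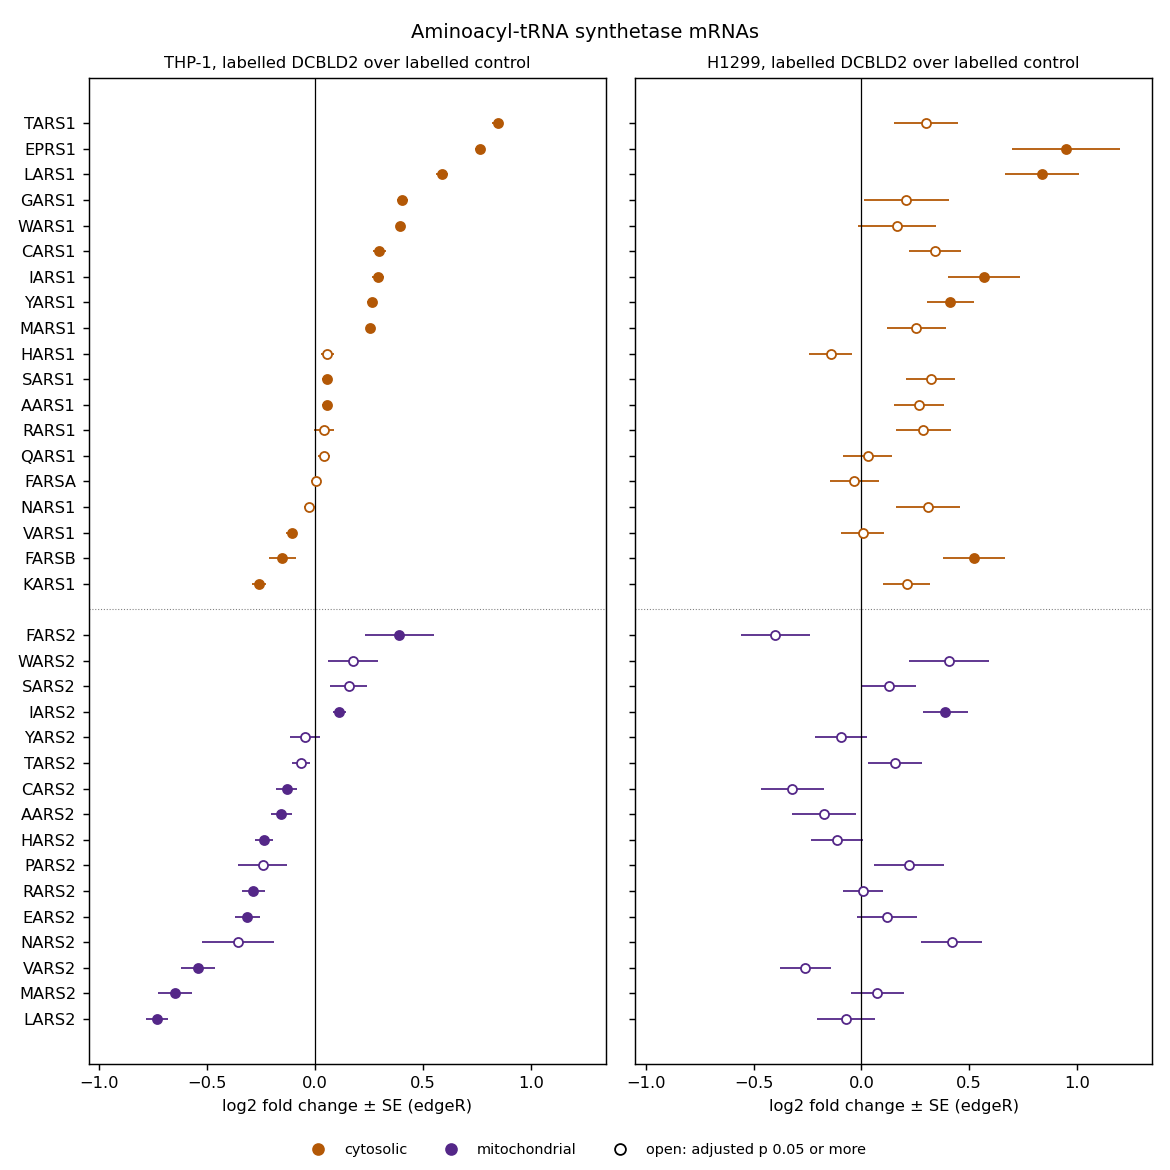
Log2 fold change ± SE (edgeR) of the synthetases reported by name, labelled DCBLD2 over labelled control, in THP-1 (left) and H1299 (right), 3 libraries per group. Filled points passed an adjusted p under 0.05; cytosolic members (above the dotted line) reach 0.85 in THP-1 and mitochondrial members (below it) reach -0.73, with far narrower errors in THP-1 than in H1299.

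TARS1, the cytosolic threonyl-tRNA synthetase, had the largest rise in THP-1. It was at 119, 121 and 123 TPM in the libraries labelled DCBLD2, against 68.2, 69.3 and 69.3 TPM in those labelled control, without overlap. In the quasi-likelihood test of edgeR this was a log2 fold change of 0.85 ± 0.03 (SE, adjusted p 4.91e-20). TARS1 (ENSG00000113407) lies on chromosome 5, 33440696 to 33469539, plus strand of GRCh38, and its window above holds TTGCATCA from base 3 of the transcript.

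EPRS1 encodes the only bifunctional human synthetase, which charges tRNA with glutamate and with proline and is part of the multisynthetase complex and of the interferon-gamma-activated GAIT complex. It was at 116, 121 and 122 TPM in labelled DCBLD2 libraries and 71.3, 73.4 and 71.6 TPM in labelled control libraries, again with no overlap. The log2 fold change was 0.77 ± 0.02 (SE, adjusted p 1.85e-20). LARS1, the leucyl enzyme that also acts as a leucine sensor upstream of mTORC1, was at 51.3, 54.9 and 52.0 TPM in labelled DCBLD2 libraries against 36.0, 37.1 and 36.9 TPM in labelled control libraries, a log2 fold change of 0.59 ± 0.03 (SE, adjusted p 1.72e-15). EPRS1 (ENSG00000136628) lies on chromosome 1, 219968601 to 220046658, minus strand, and LARS1 (ENSG00000133706) on chromosome 5, 146113038 to 146182660, minus strand.

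WARS1, the tryptophanyl enzyme, had the highest mean TPM of the synthetases in the THP-1 libraries labelled DCBLD2, within the spread of MARS1. Its values there were 368, 361 and 385 TPM, against 287, 287 and 269 TPM in the libraries labelled control, without overlap. It rose by 0.40 ± 0.02 (SE, adjusted p 2.26e-14) on the log2 scale. The gene (ENSG00000140105, chromosome 14, 100333788 to 100376805, minus strand) holds GAAACTGAAA at position -55 from the start in the window above, whose start lies inside the gene, while the window at the start further upstream holds no match to the 4 motifs. Its mitochondrial counterpart WARS2 was at 4.33, 4.43 and 5.44 TPM in labelled DCBLD2 libraries and 4.26, 3.80 and 4.70 TPM in labelled control libraries, groups that overlapped, and did not pass the test (log2 fold change 0.18 ± 0.12, adjusted p 0.182).

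GARS1 and KARS1, whose products charge tRNA in both compartments, moved in opposite directions in THP-1. GARS1, the glycyl enzyme, was at 139, 149.7 and 150.4 TPM in labelled DCBLD2 libraries against 110.3, 115 and 115 TPM in labelled control libraries, a rise of 0.41 ± 0.03 (SE, adjusted p 9.35e-13). KARS1, the lysyl enzyme, was at 75.7, 80.6 and 80.3 TPM in labelled DCBLD2 libraries against 98.5, 93.9 and 100 TPM in labelled control libraries, and fell by 0.26 ± 0.03 (SE, adjusted p 7.36e-08). Neither pair of groups overlapped. GARS1 lies on chromosome 7, 30594681 to 30634033, plus strand, and KARS1 on chromosome 16, 75627474 to 75648643, minus strand.

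The other cytosolic rises in THP-1 were smaller. CARS1 (cysteinyl, 0.30), IARS1 (isoleucyl, 0.29), YARS1 (tyrosyl, 0.26), MARS1 (methionyl, 0.26), SARS1 (seryl, 0.06) and AARS1 (alanyl, 0.05) were among them, as log2 fold changes. IARS1 was at 52.3, 54.6 and 54.0 TPM in libraries labelled DCBLD2 and 45.1, 45.6 and 44.4 TPM in those labelled control. YARS1 was at 148, 154 and 151 TPM in labelled DCBLD2 libraries against 128, 129 and 131 TPM in labelled control libraries. Neither gene's groups overlapped. Beside KARS1, the falls were those of FARSB (phenylalanyl, beta subunit, -0.15 ± 0.06) and VARS1 (valyl, -0.11 ± 0.03). FARSA, the alpha subunit, HARS1, NARS1, QARS1 and RARS1 did not pass, with log2 fold changes between -0.03 and 0.06. NARS1, whose window holds TGATGCAA, is thus among those that did not pass, and its 3 TPM values were each lower in the labelled DCBLD2 group.

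MARS1 gave a different answer in TPM than in counts. Its TPM was 370.5, 222 and 279 in THP-1 libraries labelled DCBLD2 and 264, 332 and 389 in those labelled control, groups that overlapped widely. Its CPM, the share of counted reads, was 283, 291 and 297 in labelled DCBLD2 libraries and 233, 233 and 232 in labelled control libraries, groups that did not. The rise of 0.26 ± 0.02 (SE) comes from the counts, and limma on log2(TPM + 1) gave -0.19 with an adjusted p of 0.397. Exons of MARS1 (chromosome 12, 57475445 to 57517569, plus strand) overlap exons of DDIT3 and ARHGAP9 on the opposite strand, and strand handling is not given in the sources used here. DDIT3, the stress-induced factor CHOP, averaged 108 TPM in labelled DCBLD2 libraries and 205 TPM in labelled control libraries. The part of that overlap in the MARS1 values was not tested. Exons of KARS1 (with TERF2IP), WARS1 (WDR25), EARS2 (UBFD1), CARS2 (ING1), AARS2 (TMEM151B), HARS1 (WDR55) and HARS2 (HARS1) also overlap exons of protein-coding genes on the opposite strand, and those of CARS1, FARSA, GARS1, LARS1, NARS2, WARS1 and WARS2 overlap noncoding transcripts there, so their counts carry the same uncertainty. TERF2IP, UBFD1 and ING1 fell in THP-1 by 0.45, 0.28 and 0.68 on the log2 scale, beside the falls of KARS1, EARS2 and CARS2. WDR25 rose by 0.22 beside WARS1. HARS1 was at 0.06 and did not pass, beside the fall of HARS2 (-0.24). Values of TMEM151B and WDR55 are not given here. The part of these overlaps in the synthetase values was not tested.

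Among the mitochondrial synthetases of THP-1, LARS2 fell most. The leucyl enzyme was at 8.11, 8.46 and 9.38 TPM in libraries labelled DCBLD2, against 14.2, 14.1 and 14.3 TPM in those labelled control, and fell by 0.73 ± 0.05 (SE, adjusted p 3.26e-12) on the log2 scale. MARS2, the methionyl enzyme, was at 5.60, 6.11 and 6.13 TPM in labelled DCBLD2 libraries against 8.82, 9.93 and 9.96 TPM in labelled control libraries, a log2 fold change of -0.65 ± 0.08 (SE, adjusted p 7.36e-08). The groups of both genes were far apart relative to their spread. VARS2, the valyl enzyme, was at 6.41, 7.26 and 5.23 TPM in labelled DCBLD2 libraries against 10, 8.77 and 9.61 TPM in labelled control libraries, and fell by 0.54 ± 0.08 (SE, adjusted p 7.97e-07), also without overlap. LARS2 lies on chromosome 3, 45388506 to 45549421, plus strand, MARS2 on chromosome 2, 197705369 to 197708387, plus strand, and VARS2 on chromosome 6, 30908242 to 30926459, plus strand, where exons of GTF2H4 on the same strand overlap it.

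EARS2 (-0.31), RARS2 (-0.29), HARS2 (-0.24), AARS2 (-0.16) and CARS2 (-0.13) were among the others that fell, in log2 fold change. The mitochondrial rises were FARS2, the phenylalanyl enzyme (0.39 ± 0.16, adjusted p 0.0330), and IARS2, the isoleucyl enzyme (0.11 ± 0.03, adjusted p 0.00205). FARS2 was at 5.33, 4.57 and 3.70 TPM in labelled DCBLD2 libraries and 4, 3.05 and 3.32 TPM in labelled control libraries, which overlapped. IARS2 was at 50.5, 52.0 and 50.5 TPM in labelled DCBLD2 libraries against 49.5, 48.8 and 46.8 TPM in labelled control libraries, close but not overlapping. NARS2, PARS2, SARS2, TARS2, WARS2 and YARS2 did not pass. In TPM, 8 cytosolic members had every labelled DCBLD2 library above every labelled control library and 4 had every one below, and for mitochondrial members these counts were 1 and 12. Over all genes tested, groups did not overlap for 64.9%, 29.9% higher and 35% lower.

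**Figure D2:**
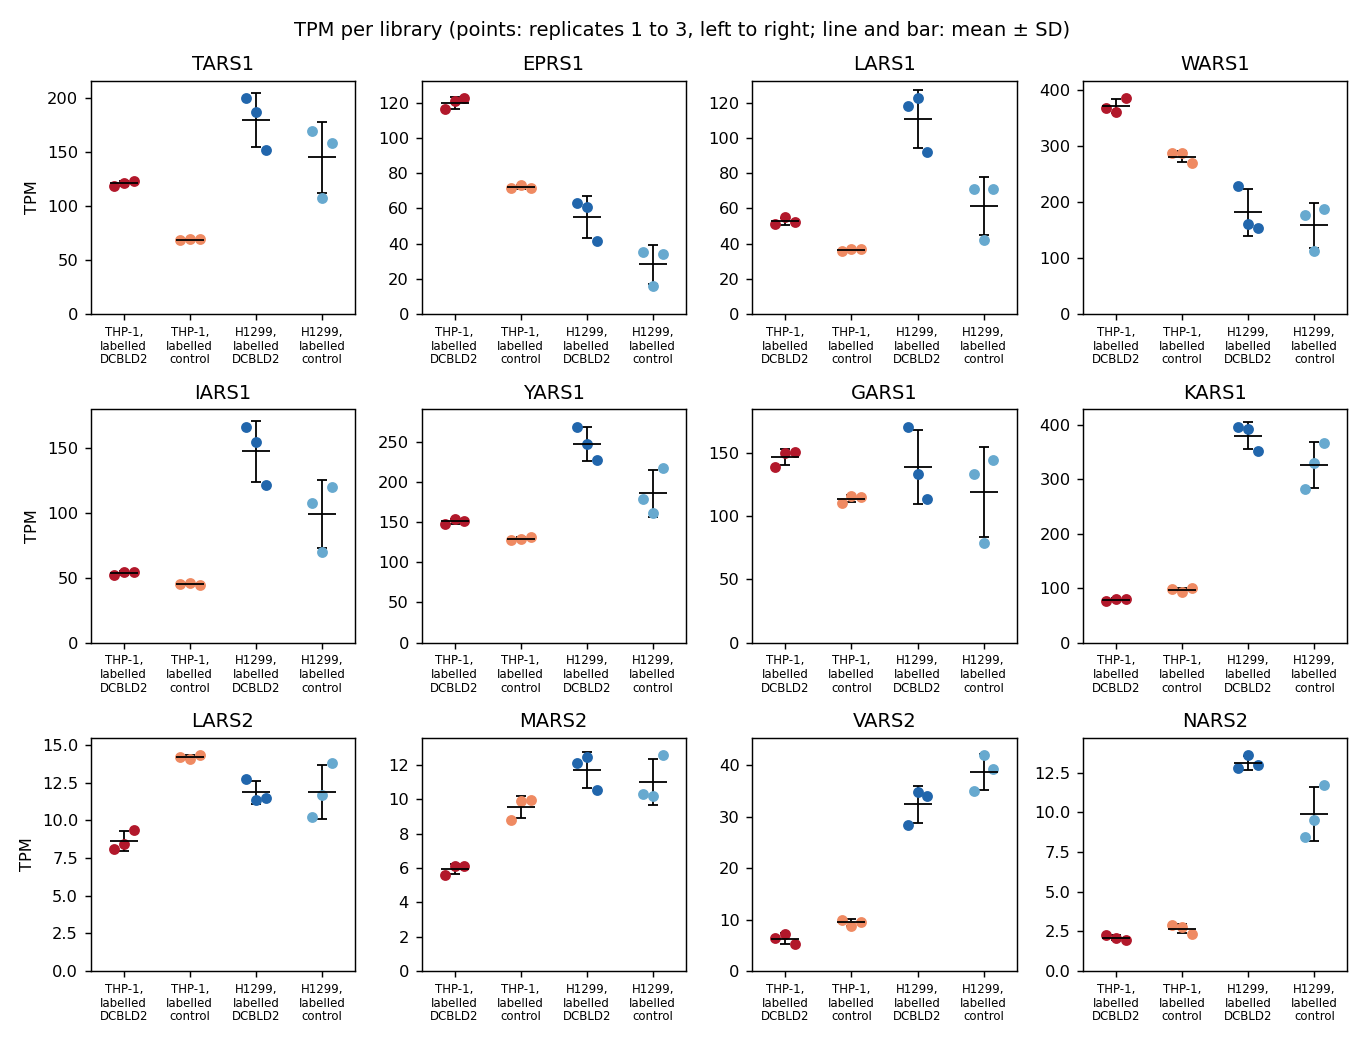
TPM of 12 synthetases in each library, by group, with the points of replicates 1 to 3 from left to right and the line and bar giving mean ± SD (n = 3). TARS1, EPRS1 and LARS1 are higher, and LARS2, MARS2 and VARS2 lower, in every THP-1 library labelled DCBLD2 than in any labelled control, while labelled control replicate 2 of H1299 is the lowest of its line for EPRS1, LARS1 and IARS1.

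How far these calls hold depends on the spread assumed. Of the 26 calls in THP-1, 8 held in every alternative fit, among them EPRS1, LARS1, TARS1 and WARS1 higher, and LARS2, MARS2 and VARS2 lower. With the wider spread of H1299 given to THP-1, 5 members were called higher and 4 lower, beside 4531 of the 13120 genes tested in either direction.

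Summed over members, the THP-1 libraries labelled DCBLD2 held 2508, 2409 and 2493 TPM of cytosolic synthetase mRNA, against 2173, 2259 and 2297 TPM in those labelled control. The mitochondrial sums were 263, 270.6 and 270.4 TPM in labelled DCBLD2 libraries and 307, 306 and 304 TPM in labelled control libraries. The cytosolic sum was thus 9.21 ± 0.309 times the mitochondrial sum in labelled DCBLD2 libraries and 7.34 ± 0.243 times in labelled control libraries (SD, n = 3 each), without overlap. Leaving out MARS1, whose TPM was erratic, the cytosolic sums averaged 2179 ± 38.9 TPM in labelled DCBLD2 libraries and 1915 ± 10.3 TPM in labelled control libraries. In H1299 the ratio was 8.09, 7.28 and 7.16 in libraries labelled DCBLD2 and 6.97, 5.52 and 6.88 in those labelled control, where replicate 2 was the lowest by a wide margin. These ratios did not overlap either, with a narrow gap between 7.16 and 6.97.

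**Figure D3:**
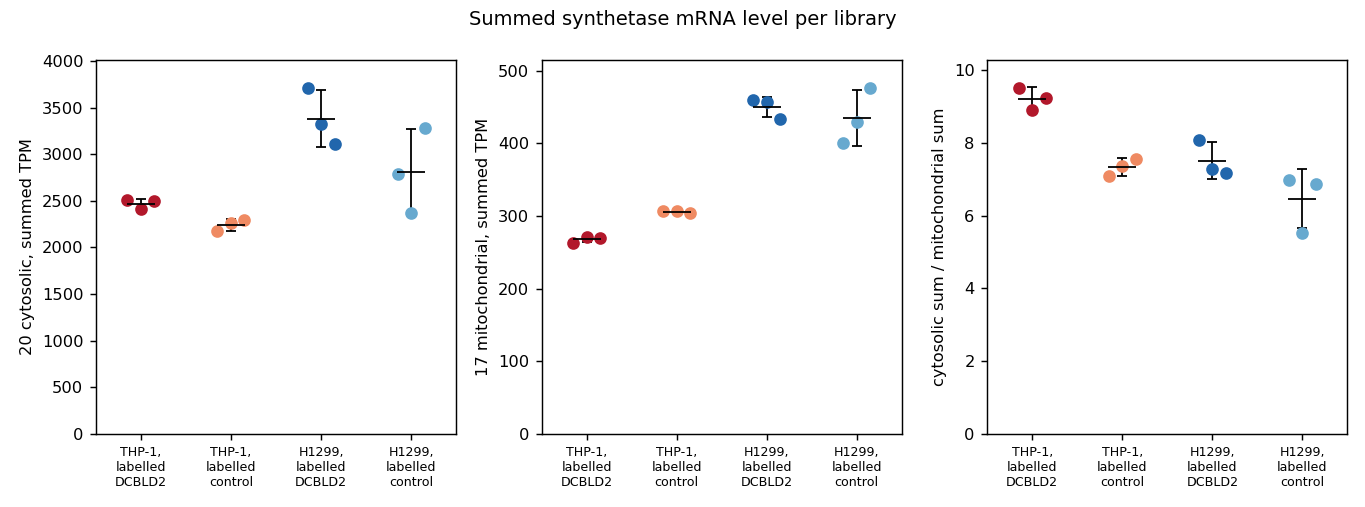
Summed TPM of the 20 cytosolic members (left), of the 17 mitochondrial members (middle) and their ratio (right) in each library, with mean ± SD (n = 3). In THP-1 the cytosolic sum is higher and the mitochondrial sum lower in the labelled DCBLD2 group without overlap. In H1299 the cytosolic sums overlap, and the ratios do not.

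In H1299, 6 synthetases were higher in the libraries labelled DCBLD2 and 0 lower, out of 37. They were the cytosolic EPRS1, LARS1, IARS1, FARSB and YARS1 and the mitochondrial IARS2. Of 12773 genes tested, 20.9% passed, 10.3% higher and 10.6% lower, beside 25% of the cytosolic members higher and 5.88% of the mitochondrial ones. The median log2 fold change was 0.28 over the cytosolic members, 0.04 over the mitochondrial members and 0.00 over all genes tested. At an unadjusted p under 0.05, 11 members were higher and 1 lower by edgeR's test. Over all 12773 genes tested, 2454 were higher and 2305 lower at that threshold. At an adjusted p under 0.05, DESeq2 and limma on TPM also called 0 members lower.

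EPRS1 was at 63.1, 60.6 and 41.2 TPM in H1299 libraries labelled DCBLD2, against 35.2, 15.7 and 34.1 TPM in those labelled control, and LARS1 was at 118, 123 and 92.2 TPM in labelled DCBLD2 libraries against 70.8, 42.2 and 70.8 TPM in labelled control libraries. The groups of neither gene overlapped, and replicate 3 was the lowest of the labelled DCBLD2 group while replicate 2 was the lowest of the labelled control group for both. The log2 fold change was 0.95 ± 0.25 for EPRS1 (SE, adjusted p 0.0276) and 0.84 ± 0.17 for LARS1 (SE, adjusted p 0.0116). EPRS1 and LARS1 rose in THP-1 too, by 0.77 and 0.59. The differences between the lines were -0.20 ± 0.28 for EPRS1 and -0.27 ± 0.19 for LARS1 (THP-1 minus H1299, SE) and did not pass, which does not show that the lines responded alike.

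IARS1 was at 166, 155 and 121 TPM in labelled DCBLD2 libraries and 107, 69.5 and 119.8 TPM in labelled control libraries of H1299, a log2 fold change of 0.57 ± 0.17 (SE, adjusted p 0.0390). YARS1 was at 269, 247 and 227 TPM in labelled DCBLD2 libraries against 179, 161 and 218 TPM in labelled control libraries, a log2 fold change of 0.41 ± 0.11 (SE, adjusted p 0.0275). The groups of both genes did not overlap, but the nearest libraries of opposite groups lay close together. IARS1 lies on chromosome 9, 92210207 to 92293756, minus strand, and YARS1 on chromosome 1, 32775237 to 32818153, minus strand, where exons of S100PBP overlap it on the opposite strand.

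FARSB was at 20.8, 19.7 and 16.4 TPM in labelled DCBLD2 libraries and 12.1, 10.8 and 16.5 TPM in labelled control libraries of H1299, groups that overlapped at a single library each. Its log2 fold change was 0.52 ± 0.14 (SE, adjusted p 0.0313). FARSA, which encodes the partner subunit, was at -0.03 ± 0.11 (SE) and did not pass. IARS2 was at 68.2, 75.6 and 59.4 TPM in labelled DCBLD2 libraries against 51.1, 44.9 and 58.1 TPM in labelled control libraries, a log2 fold change of 0.39 ± 0.10 (SE, adjusted p 0.0291), with a narrow gap between the groups. FARSB lies on chromosome 2, 222570536 to 222656337, minus strand, and IARS2 on chromosome 1, 220094102 to 220148041, plus strand.

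The remaining 31 members did not pass in H1299, with log2 fold changes from -0.40 for FARS2 to 0.42 for NARS2. WARS1 was at 229, 161 and 154 TPM in labelled DCBLD2 libraries and 176, 113 and 187 TPM in labelled control libraries, which overlapped (0.16 ± 0.18, adjusted p 0.539). GARS1 was at 170.5, 133 and 113 TPM in labelled DCBLD2 libraries against 134, 78.3 and 145 TPM in labelled control libraries (0.21 ± 0.20, adjusted p 0.468). KARS1 was at 397, 392 and 352 TPM in labelled DCBLD2 libraries against 283, 331 and 367 TPM in labelled control libraries (0.21 ± 0.11, adjusted p 0.184). The groups of all 3 overlapped. TPM values of the groups did not overlap for 4 cytosolic members, all higher, and for 5 mitochondrial members, 2 higher and 3 lower, beside 37.5% of all genes tested, 17.6% higher and 19.9% lower.

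Each H1299 call was lost in at least 1 fit with a library left out. Without labelled DCBLD2 replicate 2 none of the 6 was called, at adjusted p of 0.064 to 0.133. In that fit 514 genes in all were called, against 2669 with every library. The log2 fold changes of the 6 then ran from 0.34 to 0.90, and from 0.39 to 0.95 with every library. Without labelled DCBLD2 replicate 1 only LARS1 was called, and without labelled control replicate 2 only EPRS1, FARSB and LARS1 were. In these fits 1374 and 2404 genes in all were called. Coding length also moved with the comparison across all genes. For genes with a longest annotated coding sequence under 1000 bases the median log2 fold change in H1299 was -0.07 and 4.80% were called higher, and for those of 3000 bases or more it was 0.16 and 17.8% were. Labelled control replicate 2 stood furthest apart, with a median deviation from the mean of the 6 libraries of 0.11 in the shortest genes and -0.19 in the longest, on log2(CPM + 1). EPRS1 (4536 bases), IARS1 (3786), LARS1 (3528) and IARS2 (3036) are 4 of the 6 members in the longest class, while YARS1 has 1584 bases and FARSB 1767. The others in the longest class are VARS1 (3792 bases) and VARS2 (3279). They did not pass in H1299, with log2 fold changes of 0.01 for VARS1 and -0.26 for VARS2. The part of this pattern in the H1299 results was not tested. In THP-1 the same medians ran from 0.13 in the shortest genes to -0.07 in the longest, the opposite slope.

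**Figure D4:**
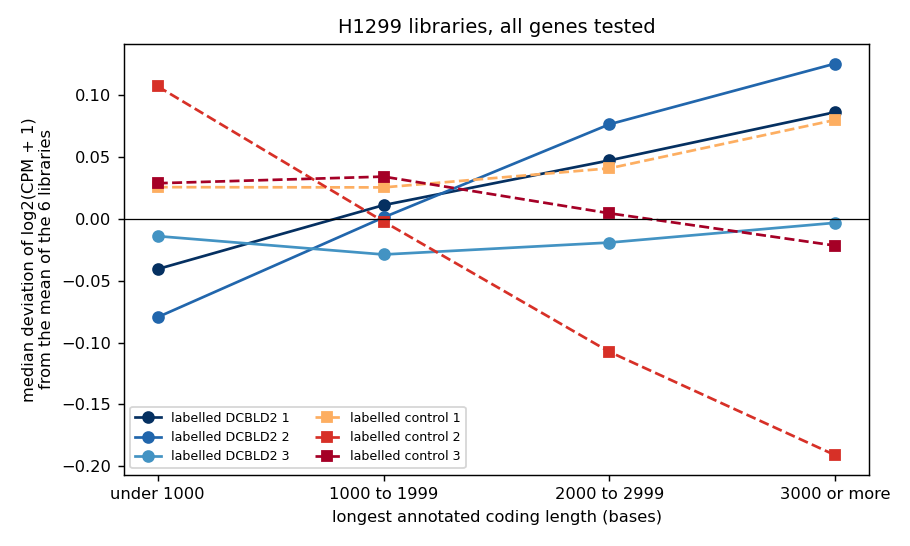
Median deviation of log2(CPM + 1) from the mean of the 6 H1299 libraries, for all genes tested in 4 classes of longest annotated coding length, 1 line per library. Labelled control replicate 2 falls from 0.11 to -0.19 from the shortest to the longest class, and labelled DCBLD2 replicates 1 and 2 run the other way. Labelled control replicate 1 also rises, from 0.026 to 0.080, and labelled control replicate 3 falls from 0.029 to -0.022. Labelled DCBLD2 replicate 3 changes little, from -0.014 to -0.003.

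The responses of the lines differed for 11 of 37 synthetases, 2 with a higher log2 fold change in THP-1 than in H1299 and 9 with a lower one. Over the 14244 genes tested, 38.7% differed, 19.3% higher and 19.5% lower in THP-1. Among these, the mitochondrial MARS2, LARS2, NARS2, EARS2, RARS2 and IARS2 were lower in THP-1 than in H1299 by this measure, with the cytosolic FARSB and KARS1, and FARS2 and TARS1 were higher. The largest difference was that of NARS2, the mitochondrial asparaginyl enzyme, at -0.79 ± 0.21 (SE, adjusted p 0.00910). It was at 2.28, 2.09 and 1.93 TPM in THP-1 libraries labelled DCBLD2 against 2.91, 2.75 and 2.35 TPM in those labelled control, and at 12.8, 13.6 and 13.0 TPM in H1299 libraries labelled DCBLD2 against 8.43, 9.51 and 11.7 TPM in those labelled control. Its TPM groups did not overlap in either line and stood in opposite order, with a narrow gap in THP-1. In CPM the THP-1 groups overlapped, at 3.28, 2.76 and 2.36 in labelled DCBLD2 libraries and 3.73, 3.51 and 3.14 in labelled control libraries. These rest on 44 to 90 reads per library. Neither line's own change passed the test (adjusted p 0.0605 in THP-1 and 0.0616 in H1299).

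MARS2 differed by -0.74 ± 0.14 (SE, adjusted p 0.000923) and LARS2 by -0.67 ± 0.15 (SE, adjusted p 0.00246). In H1299, MARS2 was at 12.1, 12.4 and 10.52 TPM in labelled DCBLD2 libraries and 10.3, 10.2 and 12.6 TPM in labelled control libraries, and LARS2 at 12.7, 11.4 and 11.5 TPM in labelled DCBLD2 libraries and 10.2, 11.7 and 13.8 TPM in labelled control libraries, both overlapping. FARSB, called higher in H1299 and lower in THP-1, differed by -0.68 ± 0.17 (SE, adjusted p 0.00563). Its THP-1 values were 5.22, 5.22 and 5.66 TPM in labelled DCBLD2 libraries and 5.98, 6.41 and 5.89 TPM in labelled control libraries, a narrow gap. FARS2 differed by 0.78 ± 0.24 (SE, adjusted p 0.0186), being at 12.5, 10.6 and 12.4 TPM in H1299 libraries labelled DCBLD2 and 14.8, 16.8 and 13.7 TPM in those labelled control. TARS1 differed by 0.53 ± 0.16 (SE, adjusted p 0.0161), with 199.6, 187 and 151 TPM in H1299 libraries labelled DCBLD2 against 169, 108 and 158 TPM in those labelled control, which overlapped. FARSB, KARS1, LARS2, MARS2 and NARS2 kept this call in every alternative fit.

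Levels were also compared between the lines. In the fit of all 12 libraries, THP-1 labelled control against H1299 labelled control, 11 members were higher in THP-1 and 18 lower, 5 and 11 of the cytosolic and 6 and 7 of the mitochondrial. Of all genes tested, 85.9% passed, 42.3% higher and 43.6% lower. Line, PMA and exposure to H1299 cannot be told apart here, and the scaling matters: the median log2 fold change of all genes was -0.03 with TMM scaling, -0.24 in TPM and -0.46 with library size alone. Most members lower in THP-1 lie above the line of equal level in the plot of levels, and EPRS1 is the one farthest below it.

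**Figure D5:**
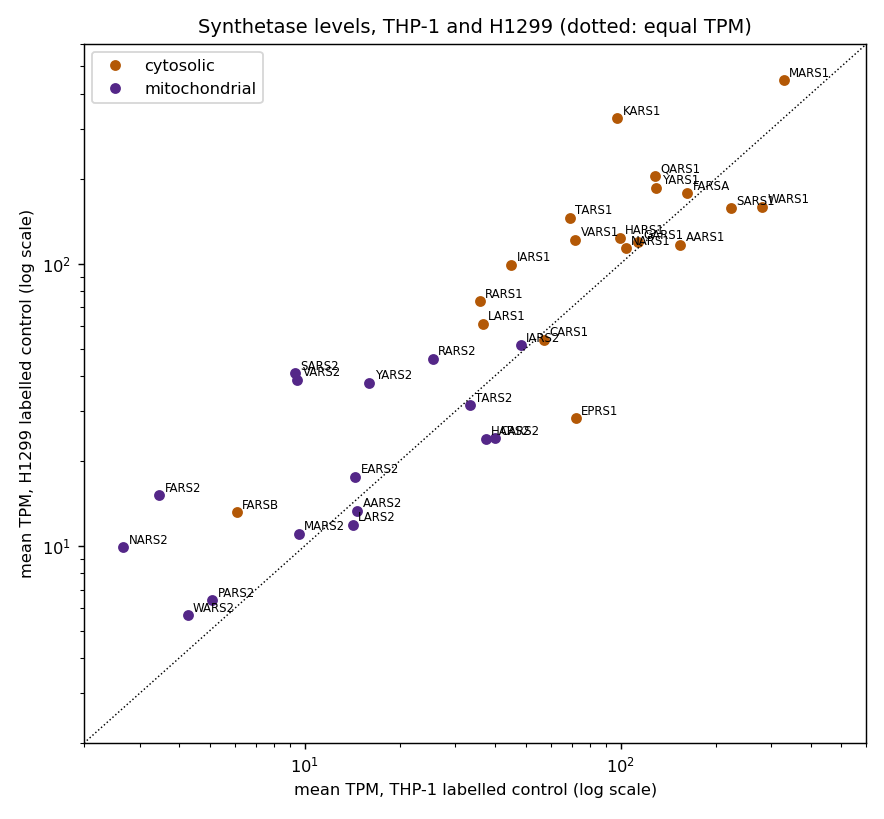
Mean TPM of the synthetases reported by name in THP-1 labelled control (horizontal, log scale) and H1299 labelled control (vertical, log scale), n = 3 libraries each, with equal TPM dotted. MARS1 has the highest mean in both groups, EPRS1 stands below the line (72.1 TPM in THP-1, 28.3 TPM in H1299), and KARS1, SARS2, VARS2, FARS2 and NARS2 stand well above it.

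EPRS1 was 3.12-fold higher in THP-1 than in H1299 control libraries (log2 fold change 1.64 ± 0.20, SE, adjusted p 2.54e-06). CARS2 (0.96), WARS1 (0.93), HARS2 (0.91), SARS1 (0.78), AARS1 (0.68) and LARS2 (0.66) followed in log2 fold change. SARS2, the mitochondrial seryl enzyme, was lowest relative to H1299, at 8.63, 9.48 and 9.77 TPM in THP-1 against 35.8, 42.4 and 44.5 TPM in H1299, a log2 fold change of -1.86 ± 0.11 (SE). Exons of MRPS12 overlap SARS2 on the opposite strand. FARS2 (-1.82), VARS2 (-1.76), NARS2 (-1.54) and KARS1 (-1.49) came next. VARS2 was at 10, 8.77 and 9.61 TPM in THP-1 against 34.9, 41.9 and 39.2 TPM in H1299, ranges that were far apart. Of the 29 calls, 23 held in every alternative fit, EPRS1, SARS2 and VARS2 among them.

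In order of level, MARS1 (328 ± 62.3 TPM), WARS1 (281 ± 10.1) and SARS1 (223 ± 2.19) led in THP-1 labelled control libraries (SD, n = 3), and MARS1 and WARS1 did not differ beyond their spread. In THP-1 labelled DCBLD2 libraries WARS1 (371 ± 12.3 TPM) stood above MARS1 (291 ± 74.9), again within the spread of MARS1. In H1299, MARS1 had the highest mean in both groups, at 641, 471 and 545 TPM in labelled DCBLD2 libraries and 422, 285 and 632 TPM in labelled control libraries, followed by KARS1 at 380.3 ± 24.6 TPM in labelled DCBLD2 libraries and 327 ± 41.9 TPM in labelled control libraries. In labelled control replicate 2, MARS1 lay below KARS1, at 285 and 331 TPM, so these were not ordered beyond their spread in that group. The lowest member was NARS2 in both THP-1 groups. In H1299 the lowest were PARS2, at 7.70, 7.15 and 7.71 TPM in labelled DCBLD2 libraries and 5.28, 6.55 and 7.40 TPM in labelled control libraries, and WARS2, at 7.30, 8.79 and 6.51 TPM in labelled DCBLD2 libraries and 6.67, 4.03 and 6.31 TPM in labelled control libraries, which could not be ordered within their spread. FARSB was far below FARSA in both lines, at 6.09 ± 0.276 TPM in THP-1 and 13.1 ± 3.01 TPM in H1299 labelled control libraries, while FARSA was at 163 ± 2.49 TPM in THP-1 and 177 ± 20.7 TPM in H1299 labelled control libraries (SD, n = 3).

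The scaffold of the multisynthetase complex and the relatives of the synthetases were measured beside them. In THP-1, 4 of 13 tested rose and 3 fell, with a median log2 fold change of 0.03, a smaller share of calls than the 68.1% of all genes tested. The scaffold proteins AIMP1 (0.25 ± 0.05) and EEF1E1, also called AIMP3 (0.24 ± 0.10), rose, and AIMP2 (0.14 ± 0.07, adjusted p 0.0879) did not pass. PTRHD1, a relative of peptidyl-tRNA hydrolases, rose most, at 23.0 TPM in libraries labelled DCBLD2 and 9.61 TPM in those labelled control (1.298 ± 0.09), and DTD1, which removes D-amino acids from tRNA, rose by 0.33 ± 0.14. QRSL1 and GATC, subunits of the mitochondrial enzyme that makes glutaminyl-tRNA in place of a glutaminyl synthetase, fell by 0.38 ± 0.06 and 0.18 ± 0.05, and MTFMT, which formylates the mitochondrial initiator tRNA, fell by 0.29 ± 0.07. GATB, the remaining subunit (0.03), AARSD1 (-0.01), DTD2 (0.06), PTRH2 (-0.15) and TARS3 (-0.25) did not pass. In H1299, 0 of 13 passed by edgeR's test, with 1 higher and 1 lower at an unadjusted p under 0.05. Of all 12773 genes tested there, 20.9% passed, and 2454 were higher and 2305 lower at that unadjusted p. The log2 fold changes of the 13 in H1299 ran from -0.38 for AIMP2 to 0.37 for QRSL1.

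ATF4 and its targets other than synthetases were mostly higher in the THP-1 libraries labelled DCBLD2. Of 28 on the list, 21 rose and 5 fell, with a median log2 fold change of 0.64, where 34.5% of all genes tested rose and 33.6% fell. PHGDH, the first enzyme of serine synthesis, was at 206 TPM in libraries labelled DCBLD2 and 56.1 TPM in those labelled control (1.90 ± 0.03). ATF4 itself was at 971 TPM in labelled DCBLD2 libraries against 568 TPM in labelled control libraries (0.81 ± 0.02), and ASNS, the asparagine synthetase, at 77.8 TPM in labelled DCBLD2 libraries against 32.8 TPM in labelled control libraries (1.33 ± 0.04). The 5 that fell were ATF3 (330.4 TPM in labelled DCBLD2 libraries against 640.3 TPM in labelled control libraries, -0.84 ± 0.02), DDIT3 (-0.89), ALDH18A1 (-0.89), PPP1R15A (-0.13) and HERPUD1 (-0.11). In H1299, 3 of 27 tested rose and 0 fell by edgeR's test, 14 and 1 at an unadjusted p under 0.05, with a median of 0.34. Of all 12773 genes tested in H1299, 2454 were higher and 2305 lower at that unadjusted p. The share of the list that rose by adjusted p is near the 10.3% of all genes tested. Those that rose were ASNS (678 TPM in labelled DCBLD2 libraries against 292 TPM in labelled control libraries, 1.23 ± 0.23), CTH (0.66 ± 0.16) and the mitochondrial folate enzyme MTHFD2 (0.60 ± 0.13). ATF4 in H1299 was at 410.4 TPM in libraries labelled DCBLD2 and 452 TPM in those labelled control and did not pass. As the coding-length pattern covers all genes of H1299, its part in these values was not tested either.

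Amino acid transporters were mostly higher in THP-1 as well. There, 8 of 14 rose and 3 fell, with a median log2 fold change of 0.41. Of all genes tested in THP-1, 34.5% rose and 33.6% fell. SLC7A5, the light chain of the large neutral amino acid exchanger, rose by 1.21 ± 0.02, the glutamine carriers SLC38A1 and SLC1A5 by 0.68 ± 0.02 and 0.60 ± 0.02. In H1299, 0 of 12 tested passed by edgeR's test, 1 higher and 1 lower at an unadjusted p under 0.05, with SLC38A2 at 0.48 ± 0.18 and SLC7A6 at -0.28 ± 0.10. Among the kinases and regulators of eIF2, the initiation factor whose phosphorylation lets ATF4 be translated, 3 of 15 rose and 9 fell in THP-1, with a median of -0.13. GCN1, which activates the kinase that senses uncharged tRNA, fell by 0.55 ± 0.03, while EIF2AK2, the interferon-induced kinase PKR, rose by 0.70 ± 0.04 and EIF2S2, the beta subunit of eIF2, by 0.55 ± 0.03. In H1299, EIF2S2 (0.55 ± 0.13) and IMPACT (0.52 ± 0.14) rose and 0 fell, with 4 higher and 1 lower at an unadjusted p under 0.05. Of all genes tested in H1299, 10.3% rose and 10.6% fell. At an unadjusted p under 0.05, 2454 of those 12773 genes were higher and 2305 lower.

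Interferon-response genes rose in THP-1 beside WARS1. Of 18 tested, 17 rose and 0 fell by edgeR's test, the same counts as at an unadjusted p under 0.05, with a median log2 fold change of 1.32. Over all genes tested in THP-1, 34.5% rose and 33.6% fell. The 2′,5′-oligoadenylate synthetases OAS2 (2.18 ± 0.06), OAS1 (1.80 ± 0.06) and OAS3 (1.79 ± 0.04), which sense double-stranded RNA, had the smallest p-values. OAS2 was at 23.5 TPM in libraries labelled DCBLD2 and 5.52 TPM in those labelled control. In H1299, 2 of 13 tested rose, IFIT1 (0.73 ± 0.17) among them, and 2 fell, IRF1 (-0.80 ± 0.19) and OAS3 (-0.43 ± 0.12). Over all genes tested in H1299, 10.3% rose and 10.6% fell.

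Other parts of the translation apparatus were also measured. Of 11 cytosolic genes of tRNA delivery and elongation, 6 rose and 3 fell in THP-1, with a median log2 fold change of 0.05, where 68.1% of all genes tested were called. Among them were EEF1A1, which carries charged tRNA to the ribosome, at -0.45 ± 0.01, its exchange factor EEF1D at 0.50 ± 0.02 and the tRNA methyltransferase NSUN2 at 0.49 ± 0.03. Of 78 cytosolic ribosomal protein genes tested, 68 rose and 7 fell, and these genes took 5.40% to 5.69% of reads in libraries labelled DCBLD2 and 3.903% to 3.93% in those labelled control. In H1299, 0 of the 11 delivery and elongation genes passed by edgeR's test, with 3 higher and 0 lower at an unadjusted p under 0.05, and 0 of 79 ribosomal protein genes rose and 1 fell, with 1 higher and 2 lower at an unadjusted p under 0.05. Over all genes tested in H1299, 20.9% passed. At an unadjusted p under 0.05, 2454 of those 12773 genes were higher and 2305 lower.

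Of the 17 mitochondrial synthetases of THP-1, 9 fell and 2 rose, and the mRNAs they serve were measured beside them. Of the 13 mRNAs encoded in the mitochondrial genome, 12 fell and MT-ND3 rose, with a median log2 fold change of -0.53. MT-ND2, a subunit of respiratory complex I, fell by 0.92 ± 0.01, MT-ND4 by 0.66 ± 0.01 and MT-CO1, of complex IV, by 0.59 ± 0.01. Together these mRNAs took 2.46% to 2.58% of reads in THP-1 libraries labelled DCBLD2 and 3.48% to 3.51% in those labelled control. Of 77 mitochondrial ribosomal protein genes, 49 rose and 8 fell, with a median of 0.25, and of 15 mitochondrial translation factors 7 rose and 3 fell, with a median of 0.02. The share of these factors called is near the 68.1% of all genes tested in THP-1. SLIRP (0.63 ± 0.08) and LRPPRC (0.30 ± 0.03), which together stabilise mitochondrial mRNAs, and TUFM (0.29 ± 0.02), the mitochondrial elongation factor that carries charged tRNA, were among those that rose.

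In H1299, 1 of the 13 mitochondrial mRNAs fell, MT-CO3 (-0.36 ± 0.10), and 0 rose, with 2 higher and 4 lower at an unadjusted p under 0.05. Of all 12773 genes tested, 2454 were higher and 2305 lower at that threshold. Of the 77 mitochondrial ribosomal protein genes 6 rose and 5 fell. Over all genes tested in H1299, 10.3% rose and 10.6% fell. LRPPRC (0.82 ± 0.18), MTIF2 (0.80 ± 0.17) and GFM2 (0.46 ± 0.10) rose among the 15 translation factors and MTRF1L (-0.36 ± 0.11) fell.

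Markers of the cells moved with the THP-1 groups too. The 10 myeloid markers summed to 10219 to 10437 TPM in libraries labelled DCBLD2 and 8412 to 8452 TPM in those labelled control, with 6 of 10 called higher and 3 lower. Over all genes tested in THP-1, 34.5% were called higher and 33.6% lower. The 10 carcinoma markers summed to 169 to 179 TPM in libraries labelled DCBLD2 and 204 to 216 TPM in those labelled control, with 2 of 7 tested called higher and 5 lower, KRT19 at 0 in all 6 THP-1 libraries and CAV1 holding most of the sum (on average 109.9 TPM in labelled DCBLD2 and 145.6 TPM in labelled control libraries). KRT18 averaged 1.01 TPM in labelled DCBLD2 libraries and 0.204 TPM in labelled control libraries, and KRT8 averaged 0.524 TPM in labelled DCBLD2 libraries and 0.283 TPM in labelled control libraries. The 6 lymphocyte markers summed to 7.38 to 7.70 TPM in labelled DCBLD2 libraries and 12.03 to 12.2 TPM in labelled control libraries, with CD3E and MS4A1 at 0 in every library. In H1299 the carcinoma markers summed to 1763 to 2220.4 TPM in libraries labelled DCBLD2 and 2460 to 2605 TPM in those labelled control. The part of these shifts in the synthetase results was not tested.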

How the data were processed

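RNA-seq libraries of H1299 and THP-1 cells, 12 in 4 groups of 3, were analysed. Trizol served for extraction and NEBNext Ultra for the libraries, per the labels' protocols. RSEM, StringTie 1.3.1, HISAT2, Bowtie2 2.2.8 and fastp 0.18.0 are the programs, and hg38 is the build, per the submitters' processing notes. Strand handling is not given in the sources used here. For each library the authors deposited an estimated count and a TPM for 20307 genes, 605 of them without a symbol. The deposited estimated counts were not normalized.

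After rounding to whole numbers, the counts were scaled by TMM, filtered by filterByExpr at a minimum of 10 counts and tested in edgeR 4.0.16 under R 4.3.3 by quasi-likelihood, with Benjamini-Hochberg adjustment over all genes tested. Each line was fitted alone. The difference of responses and the contrast between lines used all 12 libraries. A call is an adjusted p under 0.05, and SE is that of the log2 fold change. TPM gives levels. Positions and coding lengths come from GENCODE 29 on GRCh38, promoter windows from RefSeq. The steps were tested on simulated data. A few genes are counted in the totals but not reported here by name.

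The synthetases, the gene lists and the rule for naming were chosen with earlier results of these data known. Values per library are given for members called in H1299, the 6 largest called changes of each other comparison, WARS1, WARS2, GARS1, KARS1 and the highest and lowest members. Of each list, up to 3 called members with the smallest p-values are named, all members of the scaffold list, and others chosen after their values were seen. The coding-length classes were added after seeing the data. Replicates of THP-1 lay nearer to sampling noise than those of H1299, at 1.55 to 2.27 in chi-square per gene against 10.4 to 35.1, and all were counted. Alternatives were DESeq2 1.42.0, its size factors, library size alone, no filter, limma 3.58.1 on log2(TPM + 1), a fit of all 12 libraries, the H1299 spread for THP-1, a replicate block and leaving out each library.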

Additional observations from a re-analysis of the deposited data

Results flagged for a closer look

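For 11 synthetases the log2 fold change of labelled DCBLD2 over labelled control differed between THP-1 and H1299 by a test of the difference itself (edgeR's quasi-likelihood test, all 12 libraries). Over all genes tested, 38.7% differed by the same test, a larger share than among the 37 synthetases. The values are THP-1 minus H1299. The response was lower in THP-1 for 9, among them NARS2 (-0.79), MARS2 (-0.74), FARSB (-0.68), LARS2 (-0.67), KARS1 (-0.48), EARS2 (-0.44), RARS2 (-0.30) and IARS2 (-0.29). It was higher for FARS2 (0.78) and TARS1 (0.53). FARSB, KARS1, LARS2, MARS2 and NARS2 kept the call in every alternative. IARS2, EARS2 and RARS2 lost it in most, with adjusted p up to 0.218 for IARS2, 0.213 for EARS2 and 0.128 for RARS2, and the others lost it in some.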

How the results depend on the processing

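In H1299 the count of synthetases called higher was 6, and it was 3 with limma on log2(TPM + 1), 14 with all 12 libraries in 1 fit, and 0 to 6 when libraries were left out in turn. Over all genes, 2669 of 12773 were called in either direction. That number was 1880 with limma, 5056 of 14244 with all 12 libraries, and 514 to 3158 with a library left out. The count of synthetases called lower was 0, and it was 1 with all 12 libraries in 1 fit and 0 to 1 with a library left out. In THP-1 the count called higher was 14, and it was 8 in TPM, 6 with all 12 libraries, 5 with the spread of H1299 and 18 with library size alone. The count called lower was 12, and it was 4 with the spread of H1299, and 8 with all 12 libraries or with library size alone. Over all genes 8941 were called, 7721 in TPM, 6164 with all 12 libraries, 4531 with the spread of H1299 and 8980 with library size alone. The difference of responses was called lower in THP-1 for 9, 5 with library size alone and 5 to 8 with a library left out, and higher for 2, 1 in TPM and 1 to 4 with a library left out. Over all genes 5518 of 14244 differed, 5462 with library size alone, 5820 in TPM and 4663 to 5986 with a library left out. Between the control groups, 11 were higher in THP-1, and 7 with library size alone or in TPM. The count lower in THP-1 was 18, and it was 26 with library size alone and 20 in TPM. Over all genes 12242 of 14244 were called between these groups, 12445 with library size alone and 12117 in TPM. For these counts the cause was not tested.

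Directions reversed for MARS1 in THP-1 in TPM (-0.19), and in H1299 for WARS1 and GARS1, which were not called: with 1 library left out at a time WARS1 ran from -0.0421 to 0.32, with -0.00336 when labelled control replicate 2 was left out, and GARS1 ran from -0.00781 to 0.35. Between the control groups, library size alone reversed AARS2 (-0.0195), CARS1 (-0.0233), GARS1 (-0.21), IARS2 (-0.24) and TARS2 (-0.0844), and TPM reversed GARS1 (-0.0155) and IARS2 (-0.0793). Same-numbered libraries did not vary together (correlations of -0.116, -0.283 and -0.273 in H1299 and 0.0297, 0.0505 and 0.0568 in THP-1), so the numbers were not taken as pairs. With the replicate block, 4 members were called higher in H1299 and 0 lower, 14 and 12 in THP-1, and 2 and 7 in the difference. Over all genes, 1797 of 12773 were then called in H1299, 8990 of 13120 in THP-1 and 4987 of 14244 in the difference. Without the block, 2669 were called in H1299. IARS2 and YARS1 lost their H1299 call with the block (adjusted p of 0.0841 and 0.0621). The least counted member had 44 reads in the shallowest THP-1 library, so the weakest members, NARS2 and FARS2, have wide errors.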
